A study of Mus musculus with 4 samples.

Results

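The mitochondrial genome encodes 37 of the 55401 genes in the deposited tables. They were taken by name, as every gene whose symbol begins with mt-, and comprise 13 mRNA genes, 2 rRNA genes, and 22 tRNA genes. The RNA came from CD45+ cells, that is, leukocytes, sorted from the dura mater, the outer covering of the brain. All mice were wild type, and the study's methods give male C57BL/6J animals that received 1 injection of an AAV9 vector into the cisterna magna when 4 wk old. The AAV-mVEGF-C vector encodes mouse VEGF-C, and AAV-CTRL carries a soluble part of VEGFR-3 fused to an immunoglobulin tail that does not bind VEGF-C, so both groups had a vector and a surgery. Each group had 2 libraries, numbered by experiment and called controls 1 and 2 and VEGF-C libraries 1 and 2 in what follows. Each library was made from pooled cells. The methods give 10 to 12 mice per group for the sort, taken here as the mice behind each library. Errors and p-values here thus measure the spread between pools. The question was whether reads of the mitochondrial genome differed between the vectors, class by class and gene by gene.

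The mitochondrial genome is a small circle that is transcribed along both strands into long precursors. Most of its mRNAs and both rRNAs lie between tRNAs, and the excision of the tRNAs frees the RNAs on either side. The mRNAs encode core subunits of respiratory complexes I, III, and IV and of the ATP synthase (complex V). The other subunits, and every protein that copies, transcribes, or translates the mitochondrial genome, are encoded in the nucleus. In cells that rely on respiration these RNAs are among the most abundant, and neutrophils are known for few mitochondria. The libraries were made from total RNA with a kit for picogram inputs that cuts rRNA-derived cDNA after the first amplification. Mitochondrial rRNA reads are therefore those left after a depletion step.

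The compactness of the genome bears on how reads could be assigned, and the following stretches of the reference show it (GENCODE M21 transcripts, GRCm38). At chrM:995-1123, on the plus strand, *mt-Rnr1* ends, *mt-Tv* follows in capitals, and *mt-Rnr2* starts with 0 bases between them.
mt-Rnr1 end, mt-Tv, mt-Rnr2 start: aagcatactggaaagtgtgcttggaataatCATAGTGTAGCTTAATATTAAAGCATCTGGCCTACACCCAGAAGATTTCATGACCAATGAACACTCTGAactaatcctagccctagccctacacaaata
At chrM:7902-7994, plus strand, *mt-Atp8* and *mt-Atp6* share 43 bases, shown in capitals, that belong to both reading frames.
mt-Atp8 end, mt-Atp6 start: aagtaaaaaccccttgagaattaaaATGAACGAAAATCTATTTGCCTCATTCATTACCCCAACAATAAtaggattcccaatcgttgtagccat
At chrM:13532-13585, written along the plus strand, the 14 capital bases are the end of *mt-Nd5* and, on the opposite strand, the end of *mt-Nd6*.
mt-Nd5 end, mt-Nd6 end: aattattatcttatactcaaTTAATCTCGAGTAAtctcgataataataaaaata
*mt-Nd4l* and *mt-Nd4* overlap by a further 7 bases. Of the 37 genes, 9 lie on the minus strand, namely *mt-Nd6* and 8 tRNA genes. The strand setting with which reads were counted is not given in the sources used here, so reads of *mt-Nd6* and of RNA from the strand facing it cannot be told apart here. The stop codon is incomplete in 3 mRNA genes, *mt-Co3*, *mt-Nd4*, and *mt-Cytb*, whose last annotated codon is a single T.

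The libraries differed in depth and breadth. The reads assigned to genes numbered 32520649 to 46409685 per library. Control 1 had the most reads and the fewest detected genes, 20993, against 29230 to 37535 in the other libraries. The leukocyte list (*Ptprc*, which encodes CD45, *Coro1a*, and 3 more) summed to 2821 to 3199 CPM (reads scaled to a library of 1000000 by edgeR's TMM method) in all 4 libraries, with the groups overlapping. *Xist* had 39392 to 68491 reads in every library and each of 4 Y-linked genes 0 to 12, apart from *Uty* with 55 in control 1, so the reads go against the male sex that the methods give. In bulk RNA of sorted cells, fewer cells of a type and less RNA per cell cannot be told apart.

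Mitochondrially encoded genes took up a smaller share of reads in both VEGF-C libraries than in either control library. Controls 1 and 2 gave 9.61% (9.60 to 9.62, Wilson interval at 95%) and 8.63% (8.62 to 8.64) of their reads to these genes. VEGF-C libraries 1 and 2 gave 6.49% (6.48 to 6.49) and 7.30% (7.29 to 7.31). Such intervals describe counting error alone and treat every read as independent, which PCR copies are not, so they may be too narrow. The distance between libraries of the same group was far wider than any of these intervals. The means were 9.12% ± 0.696 (SD, n = 2 pools) in the control group and 6.89% ± 0.575 (SD, n = 2) in the VEGF-C group, a difference of -2.23 percentage points. No p-value is given for a share summed over chosen genes.

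Most of these reads came from the 2 rRNA genes, which held 86.5% to 88.0% of the mitochondrial reads in each library. Their share of all reads was 8.46% and 7.54% in controls 1 and 2, and 5.61% and 6.32% in VEGF-C libraries 1 and 2. The group means were 7.9997% ± 0.651 and 5.97% ± 0.506 (SD, n = 2 pools each), a ratio of 0.746. The 13 mRNA genes took up 1.15% and 1.09% of reads in controls 1 and 2, and 0.872% and 0.973% in VEGF-C libraries 1 and 2. Their means were 1.12% ± 0.0463 and 0.923% ± 0.0710 (SD, n = 2 each), a ratio of 0.825. Both classes were lower in each VEGF-C library, and the rRNA share was lower by a larger factor. Within a library, rRNA reads per mRNA read were 7.35 and 6.94 in AAV-CTRL, and 6.43 and 6.50 in AAV-mVEGF-C. The difference of the mean ratios was -0.683, and it was -0.526 with the reads of the nuclear copies described below added to the mRNA reads.

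**Figure D1:**
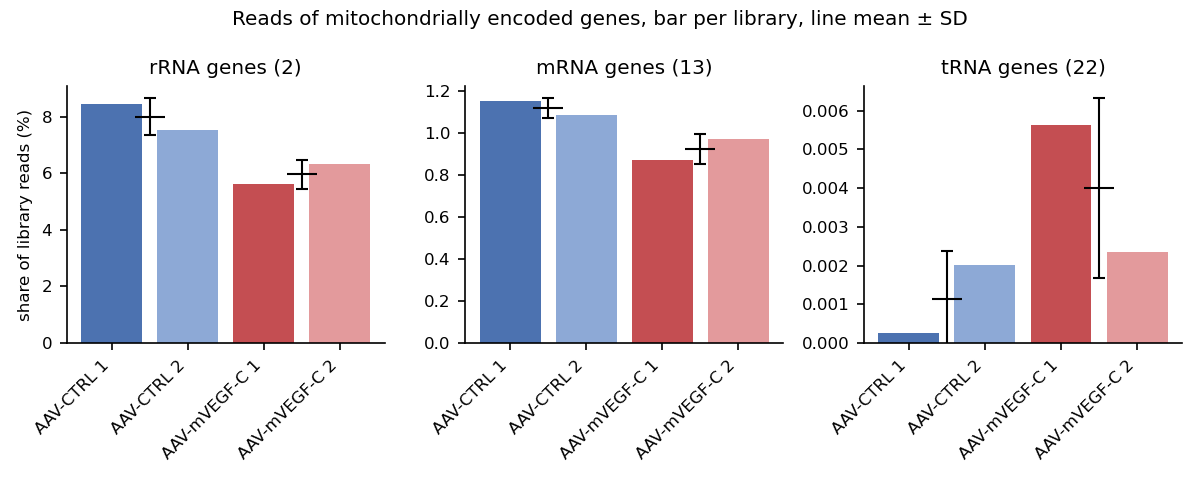
Share of library reads (%) in mitochondrial rRNA, mRNA, and tRNA genes, with 1 bar per library and the group mean ± SD (n = 2 pools) as a black line. Each class has its own axis from 0: the rRNA and mRNA bars are lower in both AAV-mVEGF-C libraries, and the tRNA bars, at most 0.00564%, are higher.

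The tRNA class was small and was higher, not lower, in both VEGF-C libraries. Its 22 genes together had 122 and 668 reads in controls 1 and 2, against 2145 and 767 reads in VEGF-C libraries 1 and 2. As shares, these were 0.000263% (Wilson interval, 0.000220 to 0.000314), 0.00200% (0.00186 to 0.00216), 0.00564% (0.00540 to 0.00588), and 0.00236% (0.00220 to 0.00253). Control 2 and VEGF-C library 2 lay close together, while control 1 was far below and VEGF-C library 1 far above them. The difference of the means, 0.00286 percentage points, became 0.00123 without VEGF-C library 1, 0.00199 without control 1, 0.00373 without control 2, and 0.00450 without VEGF-C library 2.

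Gene by gene, 28 of the 37 members passed edgeR's expression filter, including all mRNA and rRNA genes and 13 of the tRNA genes. None of the 28 was called at an adjusted p under 0.05 (edgeR's quasi-likelihood fit, p adjusted by Benjamini-Hochberg over 19806 genes), and neither was any other gene (0% of the 19806). An unadjusted p under 0.05 was found for 1 member, against 2.64% of all tested genes. DESeq2 called 0 members and 77 genes in all (0.389%), with 10 members at an unadjusted p under 0.05 (2.1% of all genes). Limma-voom called 0 members and 0% of all genes, with 5 members at an unadjusted p under 0.05 (3.44% of all genes). The directions below are therefore descriptions of 4 libraries.

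The 1 member was *mt-Rnr1* (ENSMUSG00000064337.1; chrM:70-1024, plus strand), the RNA of the small mitoribosomal subunit. It stood at 39299 and 27926 CPM in controls 1 and 2, against 20623 and 24285 CPM in VEGF-C libraries 1 and 2. Both VEGF-C libraries were below both controls, and the gap between the controls was wider than that between control 2 and either of those libraries. The log2 fold change was -0.58 (standard error 0.21; edgeR unadjusted p = 0.0344, adjusted p = 0.999), and it was -0.33 without control 1. *mt-Rnr2* (ENSMUSG00000064339.1; chrM:1094-2675, plus strand), the RNA of the large subunit, stood at 48396 and 45050 CPM in the controls and at 33928 and 40508 CPM in the VEGF-C libraries. Its log2 fold change was -0.33 (standard error 0.16; edgeR adjusted p = 0.999), and it was -0.20 without VEGF-C library 1.

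These RNAs are cut from the same precursor, with *mt-Tv* between them, yet their ratio was not the same in every library. There were 0.812 *mt-Rnr1* reads per *mt-Rnr2* read in control 1, against 0.620 in control 2, 0.608 in VEGF-C library 1, and 0.5995 in VEGF-C library 2. Control 1 stood apart, and the other control lay next to the VEGF-C libraries. Per kilobase, both rRNAs were read at like levels in the last 3 libraries, for example 24819 and 24991 RPKM (reads per kilobase in a library of 1000000 reads) for *mt-Rnr1* and *mt-Rnr2* in VEGF-C library 2, whereas control 1 had 39699 and 29512 RPKM.

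Among the 13 mRNA genes, the log2 fold change was below 0 for 11, against 49.6% of all tested genes, and its median was -0.25, against 0.0034 over all tested genes. Both VEGF-C libraries were below both controls for 6 of the 13, or for 8 of 15 with the rRNA genes, against 15.2% of all tested genes. The opposite order was found for 0 of the 15, against 16.8% of all tested genes. The genes share precursors and libraries, so they are not independent counts of the same effect.

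The complex IV genes encode the catalytic core of cytochrome c oxidase. *mt-Co1* (ENSMUSG00000064351.1; chrM:5328-6872, plus strand), which encodes its largest core subunit, had 4314 and 3251 CPM in controls 1 and 2, against 2603 and 3003 CPM in VEGF-C libraries 1 and 2. It held 30.1% to 36.2% of the mRNA reads in each library, more than any other mRNA gene, and its log2 fold change was -0.43 (standard error 0.20; edgeR adjusted p = 0.999). *mt-Co2* had 730 and 707 CPM against 550 and 661 CPM, which gave a log2 fold change of -0.25 (standard error 0.17). *mt-Co3* had 594 and 610 CPM against 491 and 570 CPM, which gave a log2 fold change of -0.18 (standard error 0.17). In all 3 genes the groups did not overlap, and the gap between the nearest libraries was narrowest for *mt-Co3*. Without VEGF-C library 1 the log2 fold changes of *mt-Co2* and *mt-Co3* were -0.112 and -0.070, and without VEGF-C library 2 they were -0.379 and -0.287.

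*mt-Cytb* (ENSMUSG00000064370.1; chrM:14145-15288, plus strand) encodes cytochrome b, the only complex III subunit of the mitochondrial genome. Its levels were 1622 and 1276 CPM in controls 1 and 2, against 994 and 1164 CPM in VEGF-C libraries 1 and 2, with no overlap. The log2 fold change was -0.43 (standard error 0.19; edgeR adjusted p = 0.999). Without control 1 it was -0.26, and that of *mt-Co1* was -0.23.

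The 7 complex I genes, which encode membrane subunits of NADH dehydrogenase, were more mixed. *mt-Nd4* had 921 and 778 CPM against 616 and 721 CPM, and *mt-Nd2* had 431 and 360 CPM against 284 and 349 CPM. Their log2 fold changes were -0.35 and -0.32 (standard errors 0.18 and 0.19), and their groups did not overlap. Without VEGF-C library 1 they were -0.228 and -0.174, and *mt-Nd2* was at -0.203 without control 1. *mt-Nd1* had 1128 and 794 CPM against 702 and 805 CPM, so that control 2 lay under VEGF-C library 2 although the log2 fold change was -0.35 (standard error 0.22). It was -0.093 without control 1 and -0.573 without control 2. *mt-Nd3*, *mt-Nd5*, and *mt-Nd4l* also overlapped, with log2 fold changes of -0.15, -0.06, and -0.03 (standard errors 0.18, 0.17, and 0.22). Each of these 3 was above 0 without VEGF-C library 1, at 0.0387, 0.0279, and 0.185. Without VEGF-C library 2 they were -0.345, -0.135, and -0.259. Without control 1, *mt-Nd5* and *mt-Nd4l* were at -0.159 and -0.228, and without control 2 at 0.0370 and 0.192. On a log2(TPM + 1) scale, on which the median of all genes was -0.0782, *mt-Nd3*, *mt-Nd5*, and *mt-Nd4l* were lower, at -0.449, -0.171, and -0.335. *mt-Co2*, *mt-Co3*, and *mt-Atp8* also moved by over 1.5 times on that scale, to -0.427, -0.373, and -0.677.

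*mt-Nd6* (ENSMUSG00000064368.1; chrM:13552-14070, minus strand) is the only mRNA gene on its strand. It had 37.8 and 43.7 CPM in controls 1 and 2, and 52.2 and 41.3 CPM in VEGF-C libraries 1 and 2. VEGF-C library 1 was highest and the other 3 libraries were closer to one another, and the log2 fold change was 0.20 (standard error 0.19). It was 0.0286 without VEGF-C library 1, 0.0787 without control 1, 0.312 without control 2, 0.363 without VEGF-C library 2, and 0.0271 on the log2(TPM + 1) scale.

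The complex V genes encode subunits a and A6L of the ATP synthase membrane part. *mt-Atp8* had 139 and 80.9 CPM in controls 1 and 2, and 85.1 and 78.6 CPM in VEGF-C libraries 1 and 2, so control 1 alone was high. Its log2 fold change was -0.43 (standard error 0.27), became -0.00047 without control 1, and passed the threshold at -0.76 without control 2 (edgeR adjusted p = 0.0132), in a fit in which control 1 is the only control and 9.19% of all tested genes were called. *mt-Atp6* (ENSMUSG00000064357.1; chrM:7927-8607, plus strand) had 873 and 1310 CPM in the controls, against 1022 and 1326 CPM in the VEGF-C libraries. Its log2 fold change of 0.10 (standard error 0.25) changed sign on the TPM scale (-0.06 with a pseudocount of 1), without control 1 (-0.174), and without VEGF-C library 2 (-0.0864), and it was 0.438 without control 2 and 0.291 without VEGF-C library 1. In the reads as deposited, the neighbours thus stood at opposite extremes in control 1, where *mt-Atp8* had its highest level and *mt-Atp6* its lowest. The low level of *mt-Atp6* there did not remain once the reads of a nuclear copy, described below, were added. It was then 1791 and 1650 CPM in controls 1 and 2, against 1331 and 1762 CPM in VEGF-C libraries 1 and 2.

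Some of these genes have near-identical copies in the nuclear genome. Chromosome 1 carries a piece of mitochondrial sequence at chr1:24611535-24616197 (minus strand; 4663 bases), annotated as 7 pseudogenes that match 7 mRNA genes over their aligned bases without a difference or with 1. These nuclear copies and those on chromosome 2 fall outside the rule for named genes, since they were picked with their values in view. *Gm10925* equals the first 678 of the 681 bases of *mt-Atp6*. *Gm28438* differs from *mt-Nd3* at T3C and *Gm29216* from *mt-Co1* at A1066T, counted from 1 at the first base of the mitochondrial gene, with the mitochondrial base first. The starts of *mt-Nd3* (chrM:9459-9518) and *Gm28438* (chr1:24613060-24613119, minus strand) and the ends of *mt-Atp6* (chrM:8548-8607) and *Gm10925* (chr1:24613974-24614030, minus strand) show how little could tell a read apart. Capitals mark the base that differs in the first pair and the bases past the end of the copy in the second.
mt-Nd3 start: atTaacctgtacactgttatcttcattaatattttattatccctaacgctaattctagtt
Gm28438 start: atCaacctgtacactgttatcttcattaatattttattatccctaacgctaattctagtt
mt-Atp6 end: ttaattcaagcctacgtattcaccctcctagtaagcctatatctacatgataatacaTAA
Gm10925 end: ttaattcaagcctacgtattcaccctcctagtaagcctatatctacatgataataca
A read within such a stretch has the same letters in both places.

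The share of reads given to the copy differed between libraries for some of these genes. Of the reads on *mt-Atp6* and *Gm10925* together, the copy held 51.3% in control 1, against 20.6% in control 2, 23.2% in VEGF-C library 1, and 24.8% in VEGF-C library 2. *Gm10222* held 36.5% of the reads on it and *mt-Nd4l* together in control 1 and 12.0% to 19.4% in the others. *Gm28437* held 21.003% of those on it and *mt-Co3* together in control 1 and 12.7% to 13.2% in the others. For *Gm28661* and *mt-Co2* the share was 18.8% to 24.7% and control 1 was within that range. *Gm28439*, *Gm29216*, and *Gm28438* held at most 2.1%, 3.13%, and 10.2% of the reads on copy and gene together, for *mt-Nd4*, *mt-Co1*, and *mt-Nd3*. *Gm28439* and *Gm29216* have 876 and 492 bases, against 1378 and 1545 in *mt-Nd4* and *mt-Co1*, so many of those reads lie outside the copy.

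For *mt-Atp6* and *mt-Nd4l*, the sum of gene and copy was closer between the controls than the gene alone. *mt-Atp6* with *Gm10925* had 1728 and 1705 CPM without TMM scaling in the controls, against 1368 and 1720 in the VEGF-C libraries, so control 1 no longer stood apart and VEGF-C library 1 was low. In a fit with the reads of each copy added to its gene, the log2 fold change of *mt-Atp6* was -0.15 (standard error 0.20) and that of *mt-Nd4l* -0.21 (standard error 0.17), both with an edgeR adjusted p of 0.999. *mt-Co3* moved to -0.26, and *mt-Nd4*, *mt-Co1*, *mt-Co2*, and *mt-Nd3* stayed within 0.02 of their values without the copies. With copies added, 12 of the 13 log2 fold changes were below 0, against 49.6% of all genes tested in that fit. Both VEGF-C libraries were below both controls for 7, against 15.2% of all genes. *Gm13339*, *Gm13340*, and *Gm13341* on chromosome 2 are 96.7% to 97.6% identical to *mt-Nd2*, *mt-Co1*, and *mt-Co2*, and their reads were not added.

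**Figure D2:**
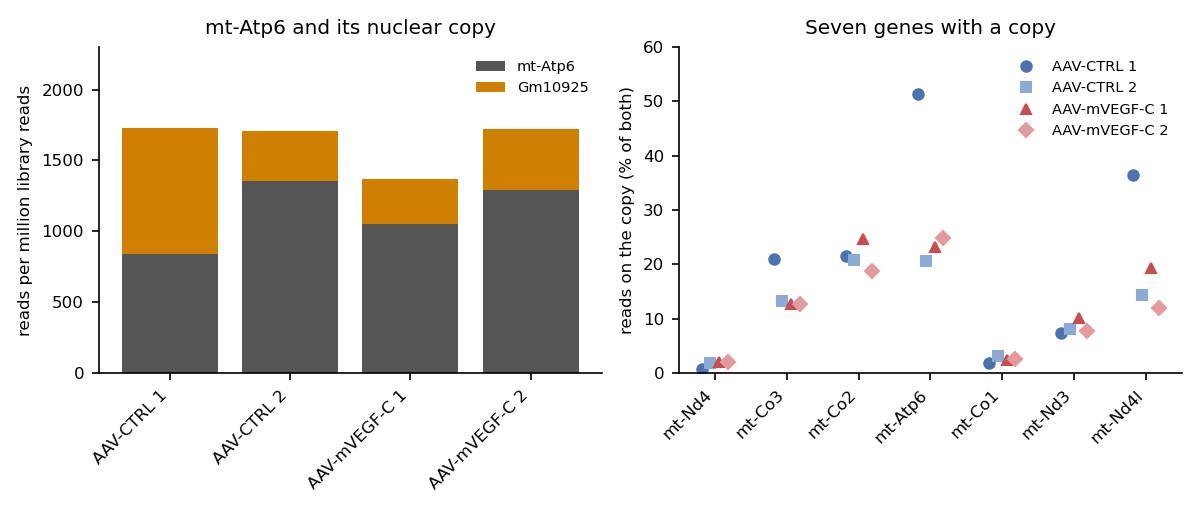
Left, reads per 1000000 library reads on mt-Atp6 (grey) and on its nuclear copy Gm10925 (orange), stacked per library. Right, reads on the copy as a percentage of all reads on gene and copy together, for each gene with a chromosome 1 copy, with 1 point per library. AAV-CTRL 1 gives the copy of mt-Atp6 51.3% of the reads, the other libraries 20.6% to 24.8%, while the stacked totals of AAV-CTRL 1, AAV-CTRL 2, and AAV-mVEGF-C 2 are 1705 to 1728.

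**Figure D3:**
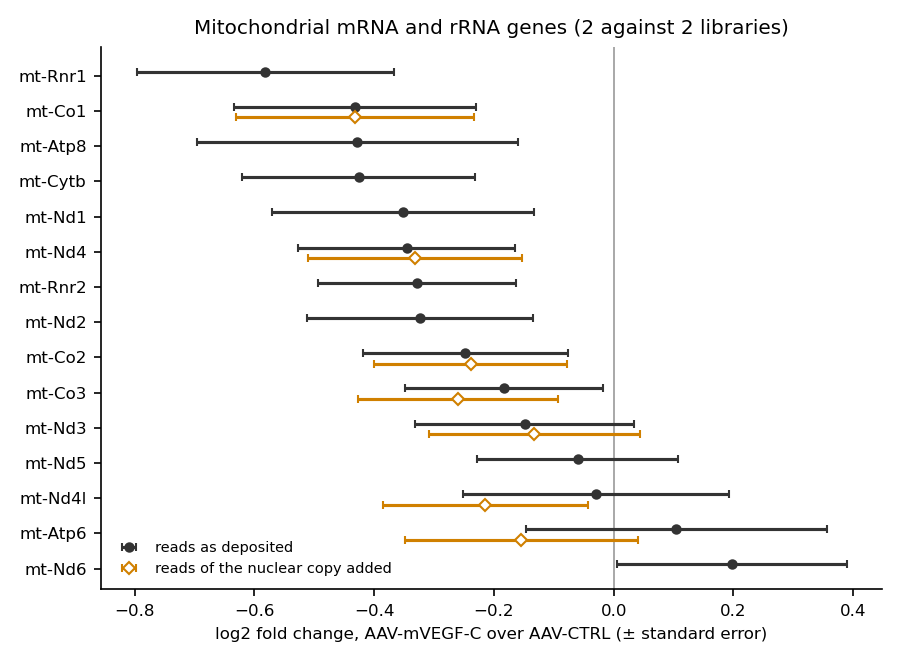
Log2 fold change of AAV-mVEGF-C over AAV-CTRL (edgeR, bars are ± 1 standard error) for the 15 mitochondrial mRNA and rRNA genes, from the reads as deposited (black) and with the reads of the nuclear copy added (orange, for 7 genes). mt-Rnr1 is lowest at -0.58 and mt-Nd6 highest at 0.20, and mt-Atp6 and mt-Nd4l are the genes that the copies move most.

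Compared per kilobase, the mRNAs spanned a wide range although most are cut from the same precursor. The mean level over 4 libraries was 2124 RPKM for *mt-Co1*, 1667 for *mt-Atp6*, 1102 for *mt-Cytb*, 967 for *mt-Co2*, and 892 for *mt-Nd1*. *mt-Co3* followed at 722 RPKM, *mt-Nd5* at 553, *mt-Nd4* at 550, *mt-Atp8* at 468, *mt-Nd4l* at 412, *mt-Nd2* at 342, *mt-Nd3* at 183, and *mt-Nd6* at 84.6. *mt-Nd5* and *mt-Nd4* differed by less than the spread between libraries. The means hide turns in single libraries, as *mt-Atp8* had 659 RPKM against 347 for *mt-Nd4l* in control 1, but 410 against 488 in control 2 and 376 against 459 in VEGF-C library 2. From these reads, *mt-Atp6* had 1236 RPKM in control 1, below *mt-Cytb* at 1368, but 1987 against 1153 in control 2. That order rested on the reads given to the nuclear copies. With the reads of the copy added, *mt-Atp6* had 2537 and 2504 RPKM in controls 1 and 2, and 2009 and 2525 in VEGF-C libraries 1 and 2. *mt-Co1* with its copy had 2746, 2244, 1773, and 1948 RPKM in the same order. *mt-Atp6* then had the highest mean, 2394 against 2178 RPKM for *mt-Co1*, and was above *mt-Co1* in every library but control 1 and above *mt-Cytb* in all 4. *mt-Co2* with its copy had a mean of 1229 RPKM, above that of *mt-Cytb*, but in control 1 it was below, at 1312 against 1368 RPKM. *mt-Nd4l* with its copy had a mean of 519.6 RPKM, above that of *mt-Atp8*, but in control 1 it was below, at 546 against 659. *mt-Nd4* had a mean of 558, next to *mt-Nd5* as before.

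The order also depended on the scale. In the deposited TPM, *mt-Atp8*, the shortest mRNA gene at 204 bases, had rank 3 of the 13 with a mean of 1358 TPM, against rank 9 by RPKM, and *mt-Atp6* had the highest mean. The TPM assign more to short genes than length alone does. *mt-Rnr1* is 13.8 times as long as *mt-Tv*, but 1 TPM of it took 32.1 to 41.2 times as many reads. The tRNA class, which had at most 0.00564% of the reads, held 0.190% of the TPM in VEGF-C library 1. TPM values of genes as short as tRNAs, 59 to 75 bases, are thus not comparable with those of mRNAs here.

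Mature tRNAs are shorter than the fragments that such libraries hold best, and each tRNA gene lies beside another gene, so a read on it can come from an unprocessed precursor. The genes with the most reads were *mt-Tg* with 883, *mt-Tk* with 570, *mt-Tv* with 511, and *mt-Tm* with 273 over the 4 libraries, and together they held 59.1% to 64.1% of the tRNA reads of each library. *mt-Tg* lies between *mt-Co3* and *mt-Nd3* (chrM:9391-9458), and *mt-Tk* between *mt-Co2* and *mt-Atp8* (chrM:7700-7764), both on the plus strand. Their sequences are shown because they carry the most reads of the class, with the anticodon in capitals.
mt-Tg: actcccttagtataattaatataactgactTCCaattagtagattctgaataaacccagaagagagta
mt-Tk: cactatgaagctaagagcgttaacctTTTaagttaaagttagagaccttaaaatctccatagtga

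*mt-Tg*, which carries glycine, had 48 and 192 reads in controls 1 and 2, against 446 and 197 in VEGF-C libraries 1 and 2. On the CPM scale these were 1.07, 5.57, 11.4, and 6.21, and the log2 fold change was 1.41 (standard error 0.76; edgeR adjusted p = 0.999). *mt-Tk*, which carries lysine, had 11, 79, 361, and 119 reads in the same order, and a log2 fold change of 2.37 (standard error 0.997; edgeR adjusted p = 0.999). Without control 1 the log2 fold changes of *mt-Tg* and *mt-Tk* were 0.64 and 1.48, and without control 2 they were 3.04 and 4.71. *mt-Tv*, which carries valine, had 9, 87, 313, and 102 reads, and *mt-Tm*, which carries methionine, had 7, 70, 148, and 48. In *mt-Tm* the groups overlapped, because control 2 had 2.03 CPM and VEGF-C library 2 had 1.51.

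Both VEGF-C libraries were above both controls for 11 of the 13 tested tRNA genes, against 16.8% of all tested genes, and the opposite order was found for 0 of all 22. The same order was found in 6 of the 9 that were not tested, but the 16.8% covers tested genes only. Some of the 6 had reads near 0, such as *mt-Ts1* with 0, 2, 3, and 4 reads and *mt-Ty* with 1, 0, 4, and 3, so their order is not read as a result. The counts rest on a library pattern that nearly all of them shared, since the most reads were in VEGF-C library 1 for 20 of the 22. The 13 tested genes had log2 fold changes of 1.29 to 2.38, but a gene this rare can pass the filter through the libraries in which it is high. They ranged from 0.36 to 1.98 without control 1, and from 2.60 to 9.40 without control 2, when *mt-Ti* and *mt-Td* had 0 reads in the only control left and their fold changes depended on the prior count. Without VEGF-C library 1 they ranged from 0.49 to 1.74, and without VEGF-C library 2 from 1.57 to 2.99. The other 9 had at most 25 reads in any library. *mt-Tr* and *mt-Ts2* had 0 reads in every library but VEGF-C library 1, where they had 9 and 5, and 3 reads or fewer cannot be told from 0 at this depth. Without control 2, 8 tRNA genes were called in a fit whose only control was control 1 and that called 9.19% of all its tested genes. Without control 1, 0 of the 37 genes were called, against 1.85% of all tested genes.

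**Figure D4:**
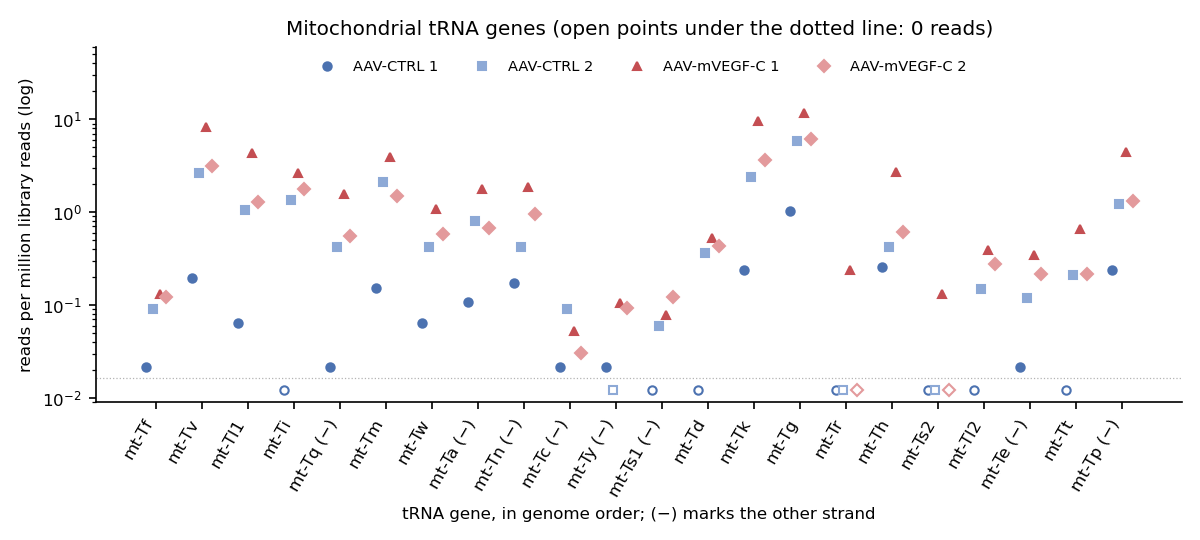
Reads per 1000000 library reads (log axis) on each of the 22 mitochondrial tRNA genes, in genome order, with 1 symbol per library and open symbols below the dotted line for 0 reads. AAV-mVEGF-C 1 (dark triangles) is highest for 20 genes, AAV-CTRL 1 (dark circles) is low throughout, and AAV-CTRL 2 and AAV-mVEGF-C 2 lie near each other.

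Several other types of short RNA were compared. Small nuclear RNA genes took up 0.237% and 0.414% of the reads in controls 1 and 2, and 1.04% and 0.492% in VEGF-C libraries 1 and 2. Small nucleolar RNA genes took up 0.132%, 0.246%, 0.372%, and 0.278% in the same order, and miRNA genes 0.00559%, 0.0161%, 0.0245%, and 0.0152%. Annotated cytosolic rRNA genes other than *CT010467.1*, which holds most reads of that type and was set aside after its values were seen, took up 0.000659%, 0.00409%, 0.0165%, and 0.00469%. In all 6 short types compared, mitochondrial tRNA included, control 1 was lowest and VEGF-C library 1 highest, but for small Cajal body RNA genes VEGF-C library 1 hardly differed from the next libraries, with 0.0290% and 0.0460% in the controls and 0.0482% and 0.0473% in the VEGF-C libraries. A list of 7 abundant small RNAs (*Rn7sk*, *Rn7s1*, and others) had another order, with sums of 61983 and 59603 CPM in the controls and 67425 and 73011 CPM in the VEGF-C libraries. *CT010467.1* itself took up 1.06% and 1.86% of the reads in AAV-CTRL and 2.38% and 1.86% in AAV-mVEGF-C, so the library with the highest mitochondrial rRNA share had the lowest share here. The part of library make-up in the mitochondrial differences was not tested.

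**Figure D5:**
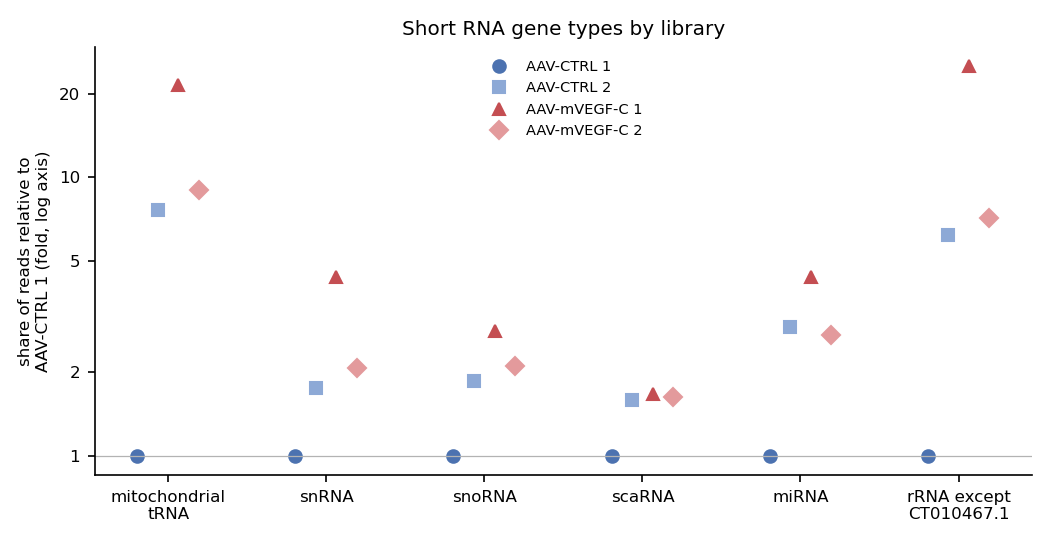
Share of library reads of 6 types of short RNA gene, relative to the share in AAV-CTRL 1 (log axis), with 1 symbol per library. AAV-mVEGF-C 1 is highest for every type, at 21.4 times the level of AAV-CTRL 1 for mitochondrial tRNA and 25.02 times for the rRNA genes without CT010467.1.

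The nuclear genes of the same complexes were compared in hand-written lists. Of 76 tested nuclear subunits of complexes I to V, 0 were called, 67 had a log2 fold change below 0, and the median was -0.23. The groups did not overlap, with AAV-mVEGF-C lower, for 15 of the 76, close to the background of 15.2%. Summed per library, these subunits had 4502 and 3344 CPM in controls 1 and 2, against 3081 and 3523 CPM in VEGF-C libraries 1 and 2. Control 1 stood highest and the other 3 libraries were close together with the groups overlapping. In the mitochondrial mRNA share as deposited, controls 1 and 2 were close, but that share is not TMM-scaled and leaves out the chromosome 1 copies. Those copies held 0.138% and 0.0791% of the reads in controls 1 and 2, and 0.0684% and 0.0774% in VEGF-C libraries 1 and 2, most in control 1.

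By complex, 34 of 36 complex I genes were below 0 (median -0.26), 4 of 4 of complex II, 7 of 9 of complex III, 8 of 11 of complex IV, and 14 of 16 of complex V. Complex II has no mitochondrially encoded subunit. Examples with the lowest unadjusted p were *Ndufc1*, an accessory complex I subunit, at -0.87 (standard error 0.39), *Sdhd*, a membrane anchor of complex II, at -0.45 (standard error 0.26), *Cox4i1* of complex IV at -0.57 (standard error 0.28), and *Atp5c1*, the gamma subunit of the ATP synthase, at -0.46 (standard error 0.25). In each of the 4, control 1 was the highest library.

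Nuclear genes that serve the mitochondrial RNAs were compared in the same way. Of 78 mitochondrial ribosomal protein genes, 66 were below 0 with a median of -0.25, and the groups did not overlap, with AAV-mVEGF-C lower, for 30, against 15.2% of all tested genes. Their summed level was 1394 and 1124 CPM in controls 1 and 2, against 1022 and 1087 CPM in VEGF-C libraries 1 and 2, so these sums did not overlap. *Mrps26* had 36.6 and 26.2 CPM in the controls, against 20.9 and 23.0 CPM in the VEGF-C libraries, a log2 fold change of -0.52 (standard error 0.22; edgeR adjusted p = 0.999). Of 39 genes for mitochondrial RNA processing and stability, 30 were below 0, and their sums, 655 and 615 CPM against 576 and 594 CPM, did not overlap either. *Mrm2*, an rRNA methyltransferase, was at -1.33 (standard error 0.60). Of 17 genes for DNA maintenance and transcription, 10 were below 0, and *Rnaseh1*, which removes RNA from RNA-DNA hybrids, was at -0.65 (standard error 0.30).

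The 20 mitochondrial tRNA synthetase genes were split, with 12 above 0 and a median of 0.09. *Sars2*, the seryl-tRNA synthetase, had 15.3 and 10.3 CPM in AAV-CTRL and 6.11 and 8.10 CPM in the VEGF-C libraries, a log2 fold change of -0.85 (standard error 0.31; edgeR unadjusted p = 0.033, adjusted p = 0.999). *Lars2*, named after its values were seen, had 352 CPM in control 1 and 772 to 929 CPM in the others, most of the list's summed level. Of 18 outer membrane, import, and matrix genes, 15 were below 0, and *Phb*, a prohibitin of the inner membrane, was at -0.50 (standard error 0.21). Of 8 regulators of mitochondrial biogenesis, 5 were above 0, with *Nrf1* at 0.22 (standard error 0.17). Over these lists, 0 genes were called.

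Markers of several cell types also stood at different levels in the groups. The summed level of 5 mast cell markers (*Cpa3*, *Mcpt4*, and others) was 1469 to 2074 CPM in AAV-CTRL and 1194 to 1269 CPM in AAV-mVEGF-C, with 5 of 5 below 0. That of 6 fibroblast markers (*Col1a1*, *Dcn*, and others) was 652 to 1041 and 353 to 549 CPM, with 6 of 6 below 0. Of 6 erythroid markers (*Hba-a1*, *Hbb-bs*, and others), 5 were below 0, 1 had 0 reads in at least 1 library, and the sums were 118 to 149 and 26.8 to 49.4 CPM. The 6 plasma cell markers (*Jchain*, *Sdc1*, and others) were all above 0, with sums of 435 to 445 and 901 to 904 CPM. The 6 T cell markers (*Cd3e*, *Cd3d*, and others) were above 0 as well, with sums of 191 to 204 and 235 to 262 CPM. All 5 B cell markers (*Cd79a*, *Ms4a1*, and others) were below 0, with sums of 239 and 579 CPM in the controls and 248 and 271 CPM in the VEGF-C libraries, so the groups overlapped. Neutrophil markers (*S100a8*, *S100a9*, and others) summed to 26238 CPM in control 1 and 12181 to 17562 CPM in the other libraries, with the groups overlapping. Sums of endothelial, mural, and osteoblast markers were also lower in both VEGF-C libraries. Those of skeletal muscle markers were higher but low throughout, at 0.916 and 1.60 CPM in the controls and 3.86 and 9.48 CPM in the VEGF-C libraries. Macrophage markers, 7 of 7 below 0, had overlapping sums, as did monocyte, NK cell, and neural markers. The part of all these markers in the mitochondrial shares was not tested.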

How the data were processed

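RNA of dural CD45+ cells was measured in 4 libraries, 2 per group. Per the file headers and values, the authors deposited 2 tables of the same genes. One holds expected counts, that is, raw estimated reads (8.18% of values not whole), and the other, also deposited by the authors, holds TPM. The submitters' processing notes name FastQC, Trimmomatic, DRAGEN, Picard, and the build mm10. Which program counted reads, and with which strand setting, is not given in the sources used here. Groups came from the sample titles. Their experiment numbers disagree with the numbers in the column labels, so the pairing is not settled.

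Estimated counts were rounded and tested with edgeR 4.0.16 in R 4.3.3 (glmQLFit and glmQLFTest, TMM, default filterByExpr keeping 19806 of 55401 genes, no covariate, Benjamini-Hochberg adjustment). Standard errors are the log2 fold change divided by the square root of F. Shares are reads of a class over all reads assigned to genes, with Wilson intervals at 95% (scipy); 3 reads were taken as the floor. RPKM were computed with GENCODE M21 gene lengths, in which all 37 members occur with the same identifier version. Nuclear copies were found by shared stretches of 50 bases among the annotated transcripts, and those at least 99% identical were added in an alternative. The alternatives were DESeq2 1.42.0 (the tool the paper names), limma-voom (limma 3.58.1), other scalings, filters, and denominators, TPM, a replicate block, each library left out, and, chosen after seeing the data, a crossed block and the copies. The code was tested on simulated data.

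The members and gene lists were chosen with earlier results of these data known. Any mt- gene could be named, and from each nuclear list the genes called or, with none, up to 2 with the lowest unadjusted p, and from each marker list the first 2.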

Additional observations from a re-analysis of the deposited data

How the results depend on the processing

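Over 15 alternatives, the number of mitochondrially encoded genes called stayed at 0 except without the filter on low reads (1 gene, *mt-Tk*) and in the range of 0 to 9 when a library was left out. All genes called numbered 77 by DESeq2, 268 without the filter, 11 with the replicate block, and 54 with the crossed replicate block, and 2 to 2058 when a library was left out. Same-numbered libraries deviated from their group means with a correlation of -0.134 across genes (-0.0353 on a log2(CPM + 1) scale), so the title numbers showed no pairing. The crossed pairing has the opposite sign, and which pools belong together is not settled. Both blocks called 0 members, with 2 of 28 members at an unadjusted p under 0.05 with the replicate block (2.65% of all genes) and 10 with the crossed replicate block (3.22%), against 1 without a block (2.64%). On the TPM scale the difference in share was -0.338 percentage points for mRNA genes and 0.0932 for tRNA genes, the rRNA to mRNA ratio differed by -0.454, and the tRNA to mRNA ratio by 0.111. Of the 15 mRNA and rRNA genes, 11 kept their sign throughout. *mt-Atp6* was at -0.0630 with either TPM pseudocount and -0.15 with nuclear copies added. Without 1 library, *mt-Atp6* ranged from -0.17 to 0.44, *mt-Nd3* from -0.345 to 0.0387, *mt-Nd4l* from -0.259 to 0.19, and *mt-Nd5* from -0.159 to 0.0370. The TPM scale with a pseudocount of 0.1 moved the median of all genes to -0.11. Except where reads moved to copies, the cause was not tested. With 2 pools per group, a fit that leaves 1 library in a group assumes that it varies like the others. Low read numbers limit the tRNA genes, 9 of which did not pass the filter.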
